A study of Mus musculus with 8 samples.

Results

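Nfil3, Dbp, Tef and Hlf encode 4 related transcription factors, and they are described here over the 8 arrays of a study of natural killer (NK) cell development in mouse bone marrow. A member was taken from the probe sets that the platform annotation gives to that 1 symbol only, and the brightest of a gene's probe sets on average led for it. These 4 genes had 6 probe sets of the 45141 on the array, with 1 each for Nfil3 and Dbp and 2 each for Tef and Hlf. All 4 were among the 11583 genes tested, of 17097 genes with a probe set of a single symbol.

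The 8 arrays form 4 groups of 2. WT ALP and WT preproNK are all-lymphoid progenitors and prepro NK cells of wild-type mice, and KO ALP and KO preproNK are the same populations of mice that lack Nfil3 (labelled -/-). ALPs are early lymphoid-restricted progenitors, and prepro NK cells are an early step towards NK cells. Every group, wild type included, came from Id2-GFP reporter mice, whose green fluorescent protein reports Id2, and was sorted from marrow depleted of lineage cells and lysed without culture. In each group replicate 1 and replicate 2 were processed on separate dates. The sources used here do not give the age of the mice, the design of the Nfil3 allele or the number of mice per sample. The p-values therefore rest on the spread between these samples alone, which may be technical.

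All 4 proteins are basic leucine zipper (bZIP) factors and bind the same DNA element, the D-box. Dbp, Tef and Hlf form the PAR family, named after a region rich in proline and acidic residues, and activate transcription in rhythm with the circadian clock. Nfil3 (also called E4BP4) represses through the same element, and it is known as a factor that early NK and innate lymphoid progenitors need. In the clock as known from other tissues, the E-box factors Arntl (Bmal1) and Clock drive Dbp, Tef and Hlf, while the ROR and REV-ERB receptors act on Nfil3 and Arntl through an element that holds AGGTCA.

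The start-site regions of the members were searched for these elements, because the same letters tie the members to the clock genes measured below. Each region ran from 250 bases before to 50 bases after a start site, on RefSeq's GRCm38.p6, and 5 such regions belonged to the 4 members, with 2 for Tef. The motifs were CACGTG for the E-box, AGGTCA for part of the receptor element, and TTATGTAA and TTACGTAA for the D-box. All were read on both strands, and the rest of the receptor element was not searched. CACGTG and TTACGTAA read the same on both strands, and no motif contains another. Of all 32851 regions of this length, 7.15% held CACGTG, 16.3% held AGGTCA, 0.938% held TTATGTAA and 0.119% held TTACGTAA.

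Both start sites of Tef had an E-box, at -127 and -138 bases from the start. Nfil3 had AGGTCA, only a part of the receptor element, at -12, on the strand opposite to the gene. The regions of Dbp and Hlf held none of the 4 motifs. The matches are shown with flanking bases, the motif in capitals, each 5′ to 3′ on its gene's strand.

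Nfil3, chr13:52981016-52981081, minus strand: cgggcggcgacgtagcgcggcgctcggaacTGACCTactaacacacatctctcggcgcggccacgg
Tef at the first start, chr15:81802516-81802581, plus strand: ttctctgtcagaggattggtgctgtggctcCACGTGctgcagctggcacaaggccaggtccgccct
Tef at the second start, chr15:81811246-81811311, plus strand: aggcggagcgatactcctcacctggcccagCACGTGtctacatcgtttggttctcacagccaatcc

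Among the 16 regions of the clock regulators, CACGTG occurred in 4 (Bhlhe41, Ciart, Cry1 and Per1), AGGTCA in 4 (Arntl, Clock, Nr1d2 and Per1) and TTATGTAA in 1. The AGGTCA match of Arntl, whose level is given below, and the D-box of Per3, the element that the 4 members bind, read as follows.

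Arntl, chr7:113207512-113207560, plus strand: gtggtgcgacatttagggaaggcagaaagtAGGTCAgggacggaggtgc
Per3 upstream match, chr4:151044833-151044900, minus strand: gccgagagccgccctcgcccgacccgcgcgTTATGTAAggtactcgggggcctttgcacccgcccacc
Per3 downstream match, chr4:151044786-151044853, minus strand: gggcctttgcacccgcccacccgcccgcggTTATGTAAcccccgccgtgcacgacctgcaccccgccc

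A match is a description of letters in these windows and shows no binding. No member's window held a D-box form, although elements outside the windows were not searched.

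Values are deposited log2 expression values, so a difference of 1 is a factor of 2, and an array's median over all its probe sets lay between 3.93 and 4.27. A value below that median is treated as near background. 1 array stood apart: the second WT preproNK array had an SD over probe sets of 1.39, against 1.55 to 1.88 on the others. On it 310 genes were at 8 or more, against 682 to 1498 on the others. The second WT ALP array was next, at 1.55 and 682. The second WT preproNK array correlated with its replicate at r = 0.621, whereas the other 3 pairs of replicates correlated at 0.869 to 0.963. The lists of ALP markers averaged 6.59 to 7.72 on ALP arrays and 3.45 to 3.92 on preproNK arrays. The 4 measured preproNK markers averaged 5.91 to 6.38 in ALP, 5.82 to 7.18 in WT preproNK and 7.29 to 7.53 in KO preproNK. Their mean of 5.82, on the second WT preproNK array, was below that of every ALP array. In WT, preproNK minus ALP was 2.64 for Id2 and 1.58 for Klrk1, but -1.95 for Cd244a and -1.37 for Cd27. Each of these markers had the same direction in KO. On preproNK arrays, all 6 T cell markers were above the array median, and their mean was 5.97 to 7.28 in WT and 9.03 to 9.17 in KO, against 4.46 to 4.68 in ALP. ILC2 markers (ILC2s are type 2 innate lymphoid cells) averaged 5.80 to 9.40 in WT preproNK and 7.75 to 8.17 in KO preproNK, and mature NK markers 5.37 to 5.92 and 6.72 to 6.94, against 4.96 to 5.16 in ALP. Of these 6 NK markers, 4 to 5 were above the array median on preproNK arrays and 3 to 4 on ALP arrays, and the NK receptor Ncr1 was below it on all arrays. In RNA of sorted populations, fewer cells of a type and less RNA per cell cannot be told apart.

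**Figure D1:**
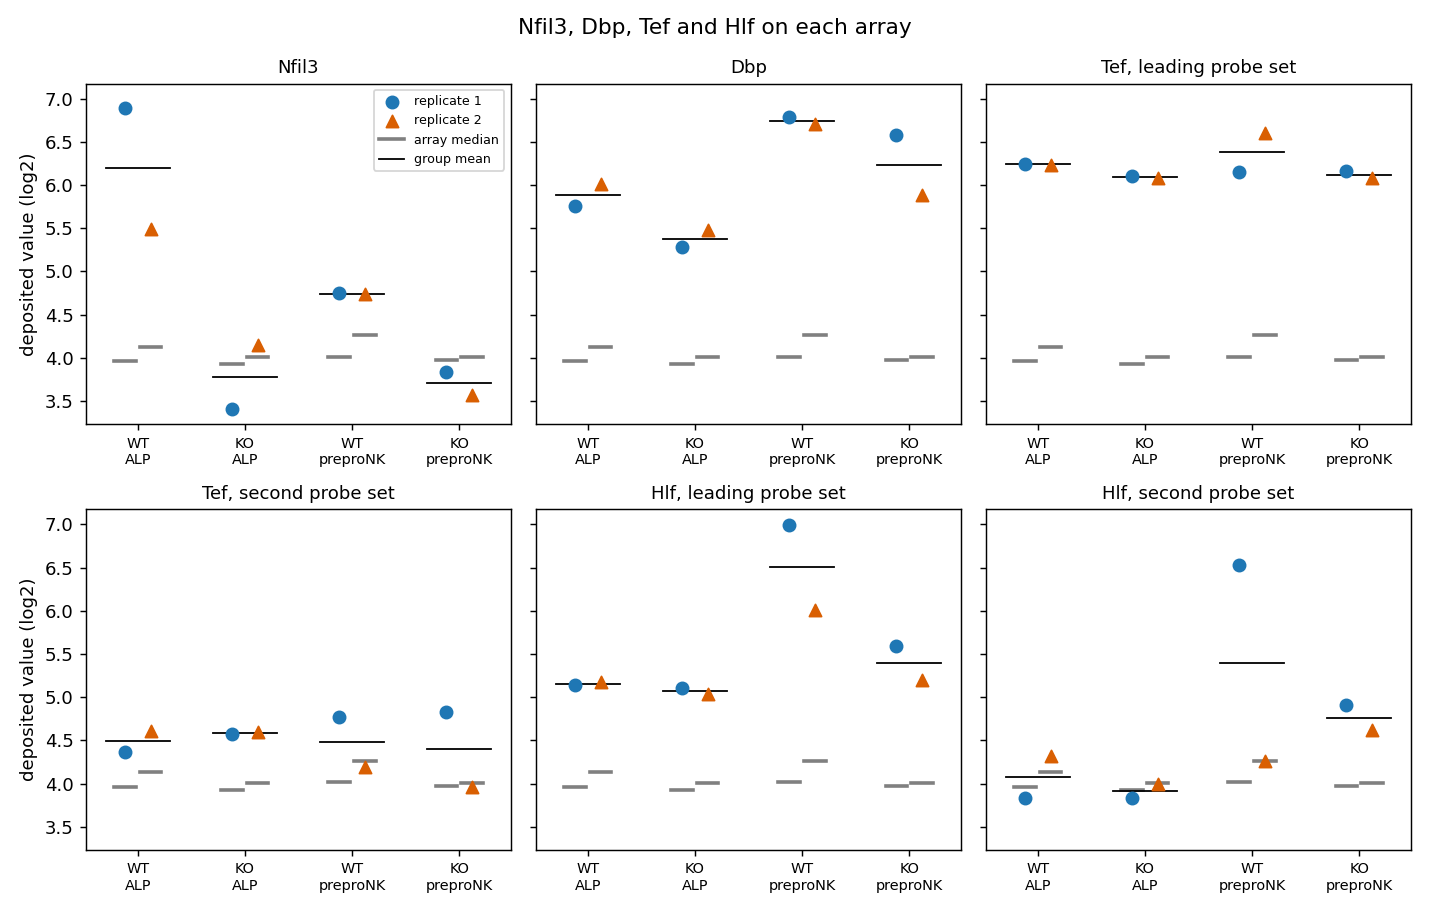
Deposited log2 value (vertical axis) of each probe set of Nfil3, Dbp, Tef and Hlf on the 8 arrays, by group; circles are replicate 1, triangles replicate 2, black lines group means and grey ticks the array medians. The 4 KO values of Nfil3 lie between 3.41 and 4.15, under its 4 WT values, and Hlf reaches 6.99 in WT preproNK.

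Nfil3 is the targeted gene, so its level was examined first. In Nfil3 (Entrez gene 18030, chr13:52967209-52982878), WT ALP gave 6.89 and 5.50 and WT preproNK gave 4.75 and 4.74. KO ALP gave 3.41 and 4.15 and KO preproNK gave 3.84 and 3.57. No KO array reached the lowest WT array, which held for 1.04% of tested genes, and 3 of the 4 KO values were below their array's median. The highest KO value, 4.15, was 0.14 above its array's median of 4.01. Where the probes lie relative to the deleted part of the gene is unknown here, so residual signal does not measure remaining transcript.

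The group means of Nfil3 were 6.19 ± 0.98 in WT ALP, 4.74 ± 0.0082 in WT preproNK, 3.78 ± 0.52 in KO ALP and 3.71 ± 0.19 in KO preproNK (SD, n = 2 each). WT ALP was thus highest in the order of levels, and it did not overlap with WT preproNK. The 2 KO groups overlapped with each other and not with WT preproNK.

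The knockout comparison used limma with 1 mean per group, and p-values were adjusted by Benjamini-Hochberg over all tested genes, with a call at an adjusted p under 0.05. In ALP, KO minus WT was -2.41 for Nfil3 (SE 0.52, 95% interval -3.61 to -1.21), a 5.32-fold difference. With values below the array median set to it, the difference of the means was 4.44-fold. Its unadjusted limma p was 0.00174 and its adjusted p was 1. The comparison called 0 genes (0%) by limma, and 5 of 11583 had an unadjusted p under 0.05. The difference was -3.47 on the first date and -1.35 on the second.

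In preproNK, KO minus WT was -1.04 for Nfil3 (SE 0.52, 95% interval -2.24 to 0.16, limma adjusted p = 0.613), with -0.91 and -1.17 on the 2 dates. This is 2.05-fold as fitted and 1.68-fold with the floor. The comparison called 0 genes (0%), and 625 had an unadjusted limma p under 0.05. Averaged over both populations, the KO effect was -1.72 (SE 0.37, limma adjusted p = 0.638). That comparison again called 0 genes (0%), with 352 at an unadjusted p under 0.05. The lower Nfil3 signal was thus seen on every array labelled KO, and it did not pass the threshold over all genes.

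In wild-type cells the Nfil3 values were lower in preproNK than in ALP. The difference was -1.45 (SE 0.52, 95% interval -2.65 to -0.25, limma adjusted p = 0.507), 2.73-fold in the fitted level, and it was -2.14 on the first date and -0.76 on the second. The groups did not overlap, as for 14.9% of tested genes in this direction. Without the array that stands apart the difference was -1.44. In KO the same contrast was -0.07 (SE 0.52, adjusted p = 1), between groups that were mostly near background. The knockout effect differed between the populations by 1.37 (SE 0.73, limma adjusted p = 1), and that comparison called 0 genes (0%), with 183 at an unadjusted p under 0.05.

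Dbp, a rhythmic activator whose transcript is a standard output of the clock, was lower in KO than in WT on each date in both populations. In Dbp (Entrez gene 13170, chr7:45705100-45710203), WT ALP gave 5.76 and 6.01, and KO ALP gave 5.28 and 5.48. WT preproNK gave 6.78 and 6.71, and KO preproNK gave 6.57 and 5.88. No KO array reached a WT array of its own population, and the preproNK arrays exceeded the ALP arrays within each genotype.

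In order of level, the group means of Dbp were 6.74 ± 0.05 for WT preproNK, 6.23 ± 0.49 for KO preproNK, 5.88 ± 0.18 for WT ALP and 5.38 ± 0.14 for KO ALP (SD, n = 2 each). The middle pair of groups overlapped. KO minus WT was -0.50 in ALP (SE 0.38, 95% interval -1.38 to 0.37, limma adjusted p = 1) and -0.52 in preproNK (SE 0.38, interval -1.40 to 0.36, adjusted p = 0.613). The preproNK difference was -0.21 on the first date and -0.83 on the second, and leaving out 1 array moved it between -0.87 and -0.17. The interaction was -0.01 (SE 0.54, interval -1.26 to 1.23), an interval that leaves room for a difference of more than 1 in either direction.

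Between populations, Dbp was higher in preproNK by 0.86 in WT (SE 0.38, interval -0.02 to 1.74, limma adjusted p = 0.693) and by 0.85 in KO (SE 0.38, interval -0.03 to 1.72, adjusted p = 0.522). Over both genotypes the difference was 0.85 (SE 0.27), 1.81-fold, with an unadjusted limma p of 0.0133 and an adjusted p of 0.163. PreproNK exceeded ALP in all 4 pairs of arrays of the same date and genotype, as for 13.6% of tested genes. The population comparisons called 0.095% of genes in WT, 1.75% in KO and 3.38% over both genotypes, and Dbp was not among them.

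Hlf is a PAR factor known for its expression in blood stem cells. Of the 2 progenitor populations here, its higher values were in preproNK. In Hlf (Entrez gene 217082, chr11:90336535-90390917), WT preproNK gave 6.99 and 6.01, while WT ALP gave 5.14 and 5.17. KO preproNK gave 5.60 and 5.20, and KO ALP gave 5.10 and 5.03. All 4 preproNK arrays were above all 4 ALP arrays, as for 4.52% of tested genes, and both WT preproNK arrays stood above the other 6 arrays.

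The group means of Hlf were 6.50 ± 0.69 in WT preproNK, 5.40 ± 0.28 in KO preproNK, 5.16 ± 0.02 in WT ALP and 5.07 ± 0.05 in KO ALP (SD, n = 2 each). In WT, Hlf was 1.35 higher in preproNK than in ALP (SE 0.42, interval 0.37 to 2.32, 2.54-fold), with an unadjusted limma p of 0.0132 and an adjusted p of 0.414. The dates gave 1.85 and 0.84. In KO the difference was 0.33 (SE 0.42, interval -0.65 to 1.31, adjusted p = 1), with 0.49 and 0.16 on the 2 dates.

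KO minus WT for Hlf was -1.11 in preproNK (SE 0.42, interval -2.08 to -0.13, 2.15-fold), with an unadjusted limma p of 0.0311 and an adjusted p of 0.613. In ALP it was -0.09 (SE 0.42, interval -1.07 to 0.89, limma adjusted p = 1). The preproNK difference was -1.40 on the first date and -0.82 on the second. The difference between these effects was -1.02 (SE 0.60, interval -2.40 to 0.36, limma adjusted p = 1), so a knockout effect particular to preproNK was not shown. T cell markers were higher on both KO preproNK arrays than on either WT preproNK array, ILC2 markers differed between the 2 WT preproNK arrays, and their part in the Hlf difference was not tested.

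The second Hlf probe set gave the order of groups less clearly. WT preproNK gave 6.53 and 4.26, KO preproNK 4.91 and 4.62, WT ALP 3.83 and 4.32, and KO ALP 3.84 and 3.996, and 4 of these 8 values were above the array median. Only the first WT preproNK array was well above the rest. The WT population difference on this probe set was 1.32 (SE 0.69), made of 2.70 on the first date and -0.06 on the second. The KO effect in preproNK was -0.63 (SE 0.69), with -1.61 and 0.36. On the date of the array that stands apart, the 2 probe sets of Hlf therefore disagreed in direction for both contrasts.

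Tef, the third PAR factor, moved least. In Tef (Entrez gene 21685, chr15:81802673-81826863), the leading probe set gave 6.15 and 6.61 for WT preproNK, 6.16 and 6.08 for KO preproNK, 6.24 and 6.23 for WT ALP and 6.11 and 6.08 for KO ALP. The 8 values spanned 0.52, and the highest belonged to the array that stands apart. The second probe set gave 3.97 to 4.83 and was above the array median on 6 arrays.

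Tef means were 6.38 ± 0.32 for WT preproNK, 6.24 ± 0.0064 for WT ALP, 6.12 ± 0.05 for KO preproNK and 6.10 ± 0.02 for KO ALP (SD, n = 2 each). KO minus WT was -0.14 in ALP (SE 0.35, interval -0.94 to 0.66) and -0.26 in preproNK (SE 0.35, interval -1.06 to 0.54). PreproNK minus ALP was 0.14 in WT (SE 0.35, interval -0.66 to 0.94) and 0.02 in KO (SE 0.35, interval -0.78 to 0.83). No difference in Tef was detectable, and the interval in preproNK reaches down to -1.06, so a p that misses the threshold does not show equal levels.

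**Figure D2:**
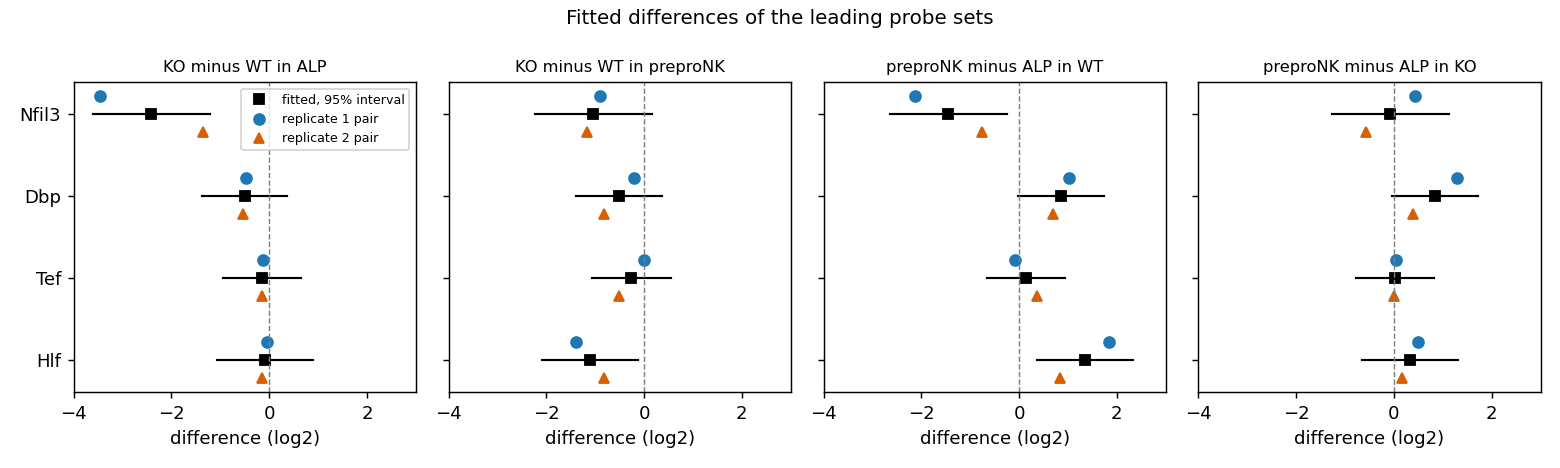
Fitted log2 differences (horizontal axis) of the leading probe sets in the 2 knockout and the 2 population contrasts; squares are fitted values with 95% intervals, circles and triangles the differences within the first and second date. Nfil3 in ALP lies at -2.41 and Hlf between WT populations at 1.35, with both dates on the same side of 0.

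Across the family, 0 of 4 members were called in any of the 7 comparisons. The knockout comparisons and the interaction called 0% of all tested genes. The population comparisons called 0.095% in WT, 1.75% in KO and 3.38% over both genotypes, so the count says little about the members. On the leading probe sets in ALP, Dbp, Tef and Hlf had both KO arrays below both WT arrays, as did 7.4% of tested genes. In preproNK this held for Dbp and Hlf, with 16.5% of genes doing so, and Tef overlapped. Over all 4 pairs of the same date and population, KO was lower in every pair for Dbp and Hlf, against a background of 13.1%. For Tef it was lower in 3 of 4 pairs. Nfil3 met each of these conditions too, but it is the targeted gene, so it says nothing about the other members. In WT, Dbp and Hlf were above ALP without overlap (9.73% of genes), and in KO the same 2 genes were (22.2% of genes). The second Tef probe set overlapped in these comparisons and was 0.10 higher in KO than in WT ALP. The second Hlf probe set overlapped in both knockout comparisons and between the WT populations. In ALP the leading probe sets of Tef and Hlf differed by less than their SEs (-0.14 and -0.09, SEs 0.35 and 0.42). The contrasts share arrays: the WT ALP arrays, for example, serve both the knockout comparison in ALP and the WT population comparison.

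The clock regulators were a list of 15 genes, the E-box activators, their Per and Cry repressors and the receptors of the second loop. Of these, 11 were tested, and 2 (Cry1 and Bhlhe41) were too dim. By limma, 0 of 11 were called between KO and WT in ALP or in preproNK, where the median differences were -0.04 and -0.15 and those over all tested genes 0.06 and 0.15. In ALP the smallest unadjusted p-values belonged to Per1, a repressor of the loop (0.49, SE 0.34), and Arntl (-0.63, SE 0.46). In preproNK they belonged to Ciart, a repressor of the E-box activators (-0.91, SE 0.48), and Clock (0.95, SE 0.51). Per2, another repressor of the loop, differed by -0.62 in ALP (SE 0.49) and -0.67 in preproNK (SE 0.49). Of the 11 regulators, 4 were higher and 7 lower in KO in ALP, and 5 were higher and 6 lower in preproNK.

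Arntl was the 1 clock regulator called higher in preproNK. It gave 5.90 and 5.31 in WT preproNK, 6.02 and 5.76 in KO preproNK, 3.20 and 4.30 in WT ALP, and 3.06 and 3.16 in KO ALP. All 4 preproNK arrays were above all 4 ALP arrays, as for 4.52% of tested genes. Both KO ALP values and the first WT ALP value were below their array's median, so the differences start near background. The difference was 2.78 in KO (SE 0.46, limma adjusted p = 0.0317), 1.86 in WT (SE 0.46, adjusted p = 0.267) and 2.32 over both (SE 0.32, adjusted p = 0.011).

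The median population difference of the 11 clock regulators was 0.61 in WT and 0.54 in KO, beside -0.05 and -0.004 over all tested genes. Rora, an activating receptor of the Nfil3 and Arntl element, was 5.71 higher in KO preproNK than in KO ALP (SE 1.38, limma adjusted p = 0.11, or 0.034 with replicate as a block). Rora is also on the ILC2 marker list, and in WT preproNK it gave 9.58 and 4.32, so its WT level rested on 1 array. The ALP values of Rora were all below the array median. With the block, Bhlhe40, Nr1d2 and Rora joined Arntl over both genotypes, at limma adjusted p-values of 0.0254, 0.0295 and 0.0154, and the share of all tested genes called went from 3.38% to 7.36%. Without the WT preproNK array that stands apart and without the block, the same 4 genes were called (7.5% of all genes), and with the block as well Clock and Per1 were added (14.3% of all genes). Both calls of Arntl were lost when any 1 of the 4 KO arrays was left out. Those fits called almost no gene of all tested in KO, and far fewer over both genotypes than the main fit. The call of Arntl in KO was also lost with the mean of its probe sets. Without the first WT preproNK array, which leaves the array that stands apart as the WT preproNK group, 2 of 11 (Clock and Rora) were called higher in KO than in WT preproNK, where 21.9% of all genes were called. With that odd array left out instead, 0 of 11 were called by limma with or without the block, and Rora turned to -0.47 without the block.

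**Figure D3:**
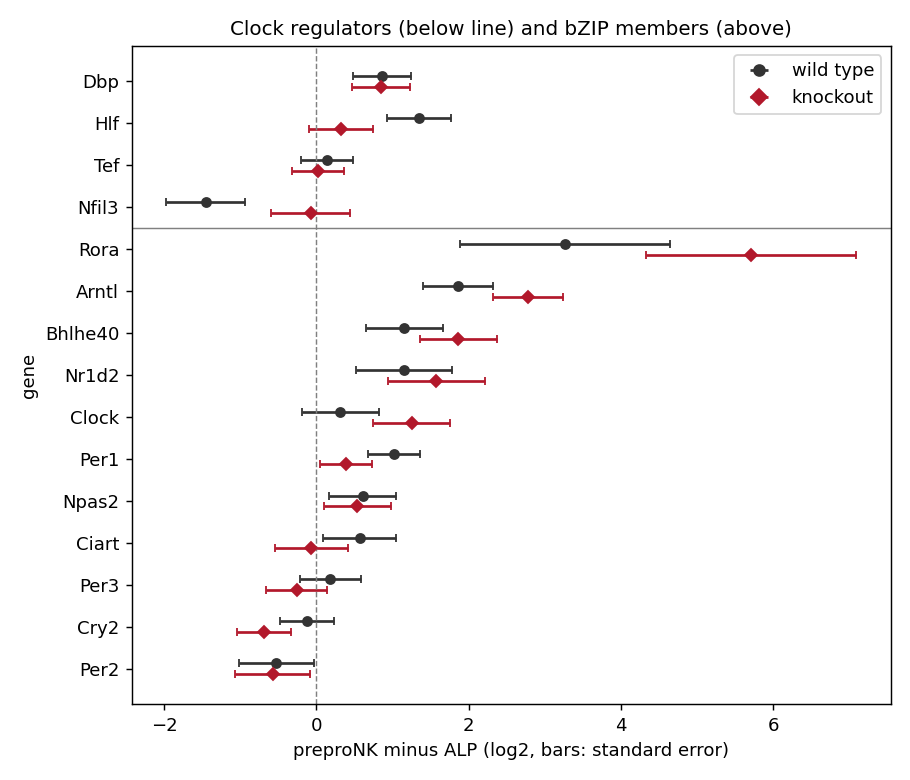
Log2 difference between preproNK and ALP (horizontal axis, bars are standard errors) in wild type (circles) and knockout (diamonds) for the 4 bZIP members above the line and the 11 tested clock regulators below it. Arntl is at 1.86 and 2.78, Dbp at 0.86 and 0.85, Hlf at 1.35 and 0.33, and Nfil3 at -1.45 and -0.07.

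Genes that PAR factors are known to drive in liver and brain form the next list. Of these 7 genes 4 were tested (Pdxk, Alas1, Usp2 and Cyp2a5), 2 were too dim and 1 had no probe set. Limma called 0 of 4 in any comparison, where at most 3.38% of all tested genes were called. Pdxk, which makes the active form of vitamin B6, was 0.47 higher in KO in ALP and 0.47 higher in preproNK (SE 0.38 each, adjusted p = 1 and 0.616), and its preproNK minus ALP difference over both genotypes was -0.74 (SE 0.27, adjusted p = 0.235). Alas1, the first enzyme of heme synthesis, differed between KO and WT by 0.82 in ALP (SE 0.85), and Cyp2a5, a xenobiotic-metabolizing enzyme, by -0.91 in preproNK (SE 0.72). Median differences of the 4 genes between KO and WT were 0.28 in ALP and -0.01 in preproNK. Of the C/EBP relatives, bZIP factors whose sites resemble the D-box, 5 of 6 were tested. Limma called 0 of them in any comparison, beside the same shares of all genes. Cebpa, a factor of myeloid progenitors, differed by -0.87 between preproNK and ALP over both genotypes (SE 0.37, limma adjusted p = 0.344).

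Signals known to induce Nfil3 in NK progenitors come through receptors of the common gamma chain family. Of 9 genes on that path 7 were tested, and Il2rb, a receptor chain of interleukins 2 and 15, was called higher in preproNK in KO (5.06, SE 0.46, limma adjusted p = 0.00472) and over both genotypes (3.53, SE 0.33, adjusted p = 0.00266). In the interleukin list the KO call was lost when any 1 KO array was left out, as were nearly all calls between populations in KO over all genes. Il2rb was 2.64 higher in KO than in WT preproNK (SE 0.46, adjusted p = 0.264), with 0 of 7 genes called between genotypes by limma. Without the first WT preproNK array, 2 of 7 were called higher in KO preproNK (Il2rb and Stat5b, a transcription factor that these receptors activate), in the setting that called 21.9% of all genes, and without the second array 0 of 7 were called by limma. With the block, Il15ra and Pdpk1 joined Il2rb over both genotypes, where the share of all genes called went from 3.38% to 7.36%. Il2rb is also on the mature NK marker list.

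Factors known to act with or after Nfil3 gave 8 tested genes of 10, as Tox and Tcf7 had no probe set of a single symbol. In KO, 3 were called higher in preproNK by limma: Tbx21, the T-box factor of NK maturation (5.55, SE 0.44, adjusted p = 0.00314), Id2, the repressor of E proteins (4.12, SE 0.69, adjusted p = 0.0326), and Zbtb16, a factor of innate lymphoid precursors (2.97, SE 0.40, adjusted p = 0.0137). The ALP values of Tbx21 were all below the array median. The sort was from Id2 reporter mice, and the part of the gate in the Id2 level was not tested. These calls in KO were lost when any 1 KO array was left out, as were nearly all calls between populations in KO over all genes. Over both genotypes Tbx21 and Zbtb16 stayed called without either KO ALP array. The KO call of Id2 was also lost without either WT ALP array, without the filter, with centred arrays and with the mean of probe sets. With the block, Tbx21 was also called in WT, and Gata3, Ets1 and Prdm1 were added over both genotypes. The block raised the share of all genes called from 0.095% to 0.578% in WT and from 3.38% to 7.36% over both. The median over the 8 was 1.95 in WT and 2.56 in KO, with all 8 positive in both. In KO against WT, 0 of 8 were called in either population, including Id2 in ALP (-0.83, SE 0.69) and Tbx21 in preproNK (2.78, SE 0.44, adjusted p = 0.188). Without the first WT preproNK array, 4 of the 8 were called higher in KO preproNK (Id2, Tbx21, Gata3 and Ets1), where 21.9% of all genes were called. Gata3 was then at 1.504, against -0.16 with all arrays and -1.82 without the second WT preproNK array. With the block and without that second array, Tbx21 alone of the 8 was called (2.36, limma adjusted p = 0.0471), and 0.406% of all genes.

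Stem cell factors that are known to be expressed alongside Hlf were lower in preproNK where they were called. Of 10 genes 6 were tested, and 3 were too dim (Mecom, Mllt3 and Procr). In KO, limma called Hoxa9 (-3.74, SE 0.54, adjusted p = 0.0198) and Meis1 (-3.78, SE 0.59, adjusted p = 0.026), homeobox factors of stem and progenitor cells, lower in preproNK. Over both genotypes Erg, an ETS factor of stem cells, joined them (-2.05, SE 0.34, adjusted p = 0.0199), though not when any 1 KO array or the first WT ALP array was left out. The calls in KO were lost without any 1 KO array, as were nearly all calls between populations in KO over all genes. Meis1 in KO was also not called with repeated quantile normalization or centred arrays, and over both genotypes not with repeated quantile normalization. With the block, Hoxa9 and Meis1 were also called lower in WT (limma adjusted p = 0.0466 and 0.0378), Erg joined them in KO, and Gfi1b and Mycn over both genotypes. The shares of all genes called with the block were 0.578% in WT, 3.88% in KO and 7.36% over both, against 0.095%, 1.75% and 3.38% without it. The median population difference of the 6 was -1.26 in WT, where Hlf was at 1.35, and -1.86 in KO. Mycn, a growth regulator, differed by -1.13 between KO and WT preproNK (SE 0.35, limma adjusted p = 0.613), next to -1.11 for Hlf.

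Among 9062 tested genes that spanned at least 1 over the arrays, those whose pattern was most like each member were ranked by Pearson's r over the 8 arrays, as a description. Arrays share a group or a date with others, so the 8 points are not independent. For Nfil3 the closest were Tenm2 (0.878), Pnliprp2 (0.857) and Urm1 (0.823), and the most opposite was Ykt6 (-0.798). For Dbp they were C430002N11Rik (0.965), Nol4l (0.944) and Sbf2 (0.944), with Phactr2 (-0.982) the most opposite. For Hlf they were Slc6a13 (0.968), Lztfl1 (0.964) and Flrt2 (0.962), and the opposite end held Dnah8 (-0.949) and the mitotic genes Cdca2 (-0.93) and Ndc80 (-0.928). Spearman's rank correlations of these genes with Hlf were weaker, in the same order 0.786, 0.81, 0.762, -0.643, -0.762 and -0.714. Tef spanned 0.52 and was not ranked.

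**Figure D4:**
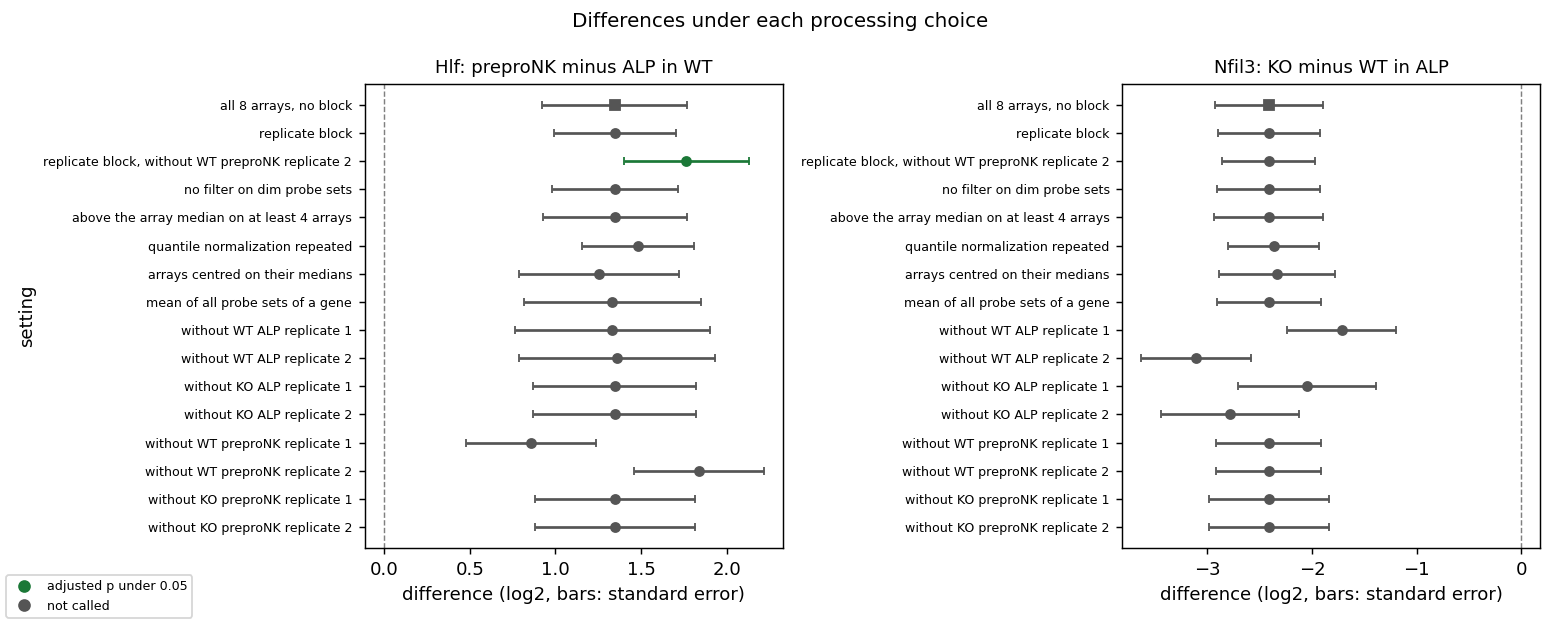
Log2 difference (horizontal axis, bars are standard errors) of Hlf between the WT populations and of Nfil3 between KO and WT in ALP under each processing choice (vertical axis); green marks an adjusted p under 0.05. Both differences keep their direction in the settings shown, and Hlf is called in 1 of them, at 1.76.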

How the data were processed

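RNA of sorted cells was measured on 8 one-colour Affymetrix arrays after 23 cycles of amplification, per the labels' protocols. The deposited log2 expression values per probe set come from RMA in the authors' hands, and the submitters' processing notes also name Partek. The sources used here give no versions or settings, and the values themselves were the basis for reading them as log2. RMA corrects background and usually equalizes probe signals between arrays, yet the deposited values differ between arrays in their spread (SD 1.39 to 1.88). Amplification can add spread between arrays.

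Of 45141 probe sets, 28898 had 1 gene symbol, 551 several and 15692 were not listed. Of those with 1 symbol, 28689 matched RefSeq and 0 symbols changed. A gene was tested if its brightest probe set exceeded the array median on at least 2 of 8 arrays. One model with 4 group means was fitted with limma 3.58.1 in R 4.3.3 (lmFit, eBayes, 4 residual degrees of freedom, two-sided), for 7 comparisons with Benjamini-Hochberg adjustment, and was checked on simulated data. The second probe sets of Tef and Hlf were read from a fit over all probe sets. Precision is limited by the number of arrays.

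Replicate numbers mark processing dates, per the series' design text, so they pair the samples, and deviations of same-numbered arrays correlated at r = 0.149 to 0.807. The fit with the replicate block has 3 residual degrees of freedom. Alternatives changed the filter, scaling, probe set rule and arrays. The floor at the array median was chosen after seeing the data. Members and gene lists were chosen with earlier results of these data known. The genes named from a list were all that were called, up to 4 per comparison, and otherwise those with the smallest p-values. Per2, Rora in WT, Cebpa, Bhlhe40 and Nr1d2 were named after their values were seen.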

Additional observations from a re-analysis of the deposited data

How the results depend on the processing

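Each member was refitted under the alternatives, giving 105 values over the 7 comparisons. Direction turned in 10 of these for Tef, 5 for Dbp, 2 for Nfil3 and 0 for Hlf. A call arose in 3 for Hlf and 1 for Nfil3. Differences within 1 date turned as well in some comparisons. Tef between KO and WT preproNK was 0.006 on the first date, and Nfil3 between the KO populations was 0.43. With replicate as a block, no member was called (limma adjusted p = 1 for Nfil3 in ALP, 0.319 for its mean knockout effect, 0.0843 for Dbp and 0.093 for Hlf between populations). A call arose for the WT population difference of Hlf with the block and without the second WT preproNK array (1.76), and none arose without that array alone (1.84). The mean population difference of Hlf was called at 1.05 in the same setting and at 1.08 without that array alone. The mean knockout effect of Nfil3 was called (-1.72) without the first WT preproNK array, which leaves the array that stands apart as that group. This effect ranged from -2.07 to -1.38 without 1 array. The mean population difference of Hlf ranged from 0.59 to 1.08 without 1 array. Each fit that called a member left 1 array in the WT preproNK group. It also called a larger share of all genes in that comparison than the main fit did. With the floor at the array median, the knockout difference of Nfil3 in preproNK moved to -0.75.

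In the fits, direction turned where a difference was near 0. For Tef these were the WT population difference (-0.104 with the block and without the second WT preproNK array, -0.0867 to 0.37 without 1 array), the KO one (-0.0734 with repeated quantile normalization, -0.0838 with the mean of probe sets, -0.0118 in one and up to 0.0617 in another setting without 1 array), the interaction (0.129 and 0.112 without the second WT preproNK array, with and without the block, and down to -0.34 without another array) and the mean population difference (-0.0397, -0.0082 and -0.0309, and up to 0.20 without 1 array). The KO population difference of Nfil3 became 0.29 and 0.06 without the second KO ALP or KO preproNK array, in a range from -0.44. The Dbp interaction became 0.0578 with centred arrays and took values from -0.36 to 0.333 without 1 array, among them 0.0228, 0.0859 and 0.112. The causes were not tested.

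Counts of called genes moved more. With the block, 10 genes were called between genotypes in preproNK, and 67, 449 and 852 between populations in WT, KO and both, against 11, 203 and 391 without it. Leaving out the second WT preproNK array as well gave 47, 431, 1238 and 1661. In WT, no filter gave 6, repeated quantile normalization 70 and centring 3, and centring gave 116 in KO. Leaving out 1 array gave 0 to 2532 for the knockout in preproNK and 0 to 1309 for its mean, the highest both without the first WT preproNK array, and 0 to 824, 0 to 530 and 35 to 1058 for the population differences in WT, KO and both.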
